A study of Caenorhabditis elegans with 6 samples.

Results

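MBL-1 is the muscleblind protein of Caenorhabditis elegans, a zinc-finger RNA-binding protein that regulates alternative splicing in muscle and neurons. The 5 genes described here encode other RNA-binding proteins: sup-12, fox-1 and asd-2 code for splicing regulators, and pab-2 and cgh-1 for cytoplasmic mRNA-binding proteins. They were chosen by the peak lists themselves, since a called peak of RNA from the precipitation lies in each of them, and mbl-1 was left out. A peak was taken as a member when its summit, the position of highest coverage, lay inside the annotated span of one of these genes on the build WBcel235. This gave 11 of the 459 summits in the lists deposited by the authors, of which 7 lay in the 3 splicing regulator genes and 4 in the other 2.

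The study used RNA immunoprecipitation and sequencing (RIP-seq), in which a protein is precipitated and the RNA that comes with it is sequenced. Whole synchronised L4 larvae of the genotype mbl-1c(syb5299), whose MBL-1 carries a 3xFLAG tag, were grown at 20 °C on OP50 bacteria. All 6 samples came from this genotype, 3 as total RNA before precipitation (RNA input) and 3 as the RNA that an anti-FLAG antibody brought down (IP), and an IP from untagged animals was not analysed here. Each IP was compared by the authors with the input of the same number, which gave lists 1, 2 and 3. After tags at the same position were removed, the IPs held 39033 to 49827 tags and the inputs 30707 to 38364. Nothing in the labels says that the replicates were separate cultures, so the spread between lists may be technical. The animals were sampled whole, so the cell types that the RNA of a peak came from are not known.

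SUP-12 is an RNA-recognition-motif protein that controls tissue-specific exon choice in body wall muscle. FOX-1 belongs to the same family as the vertebrate RBFOX proteins and is known as a counting signal on the X chromosome in worm sex determination, where it acts on the splicing of xol-1. ASD-2 is a STAR-family protein related to Quaking, which switches mutually exclusive exons of a muscle-expressed collagen gene, and it acts with SUP-12 on muscle splicing. PAB-2 is a cytoplasmic poly(A)-binding protein, which coats mRNA tails, and PAB-1 is its paralog. CGH-1 is a DEAD-box helicase of the DDX6 family, found in the RNA granules of the germ line, where it protects and represses stored mRNAs.

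All 7 peaks of the splicing regulators were in list 3, and none of these 3 genes had a peak in list 1 or list 2. The genes pab-2 and cgh-1 had 1 peak each in list 1 and 1 each in list 3. List 2, made from the IP with the most tags, held no peak in any of the 5 genes. Counting every protein-coding gene with a summit inside its span, hosts of small RNA genes included, 0.37% of 19983 genes had a peak in list 1, 0.465% in list 2 and 0.636% in list 3. Of the 5 genes, 2 had a peak in at least 2 lists, and 49.4% of the 166 coding genes with any peak did. The genes were chosen for their peaks, so these counts describe them and were not tested.

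**Figure D1:**
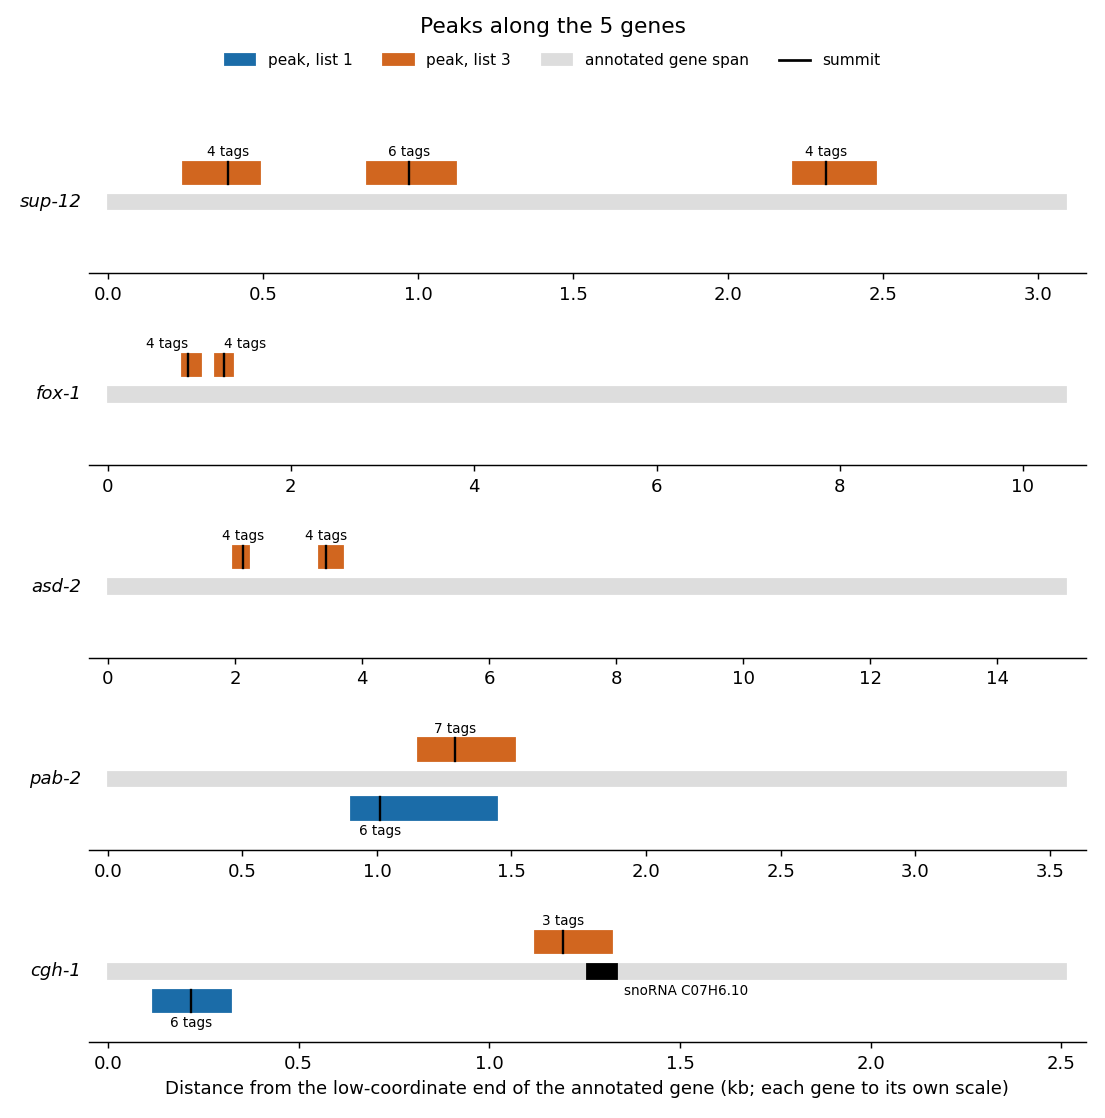
Peaks along sup-12, fox-1, asd-2, pab-2 and cgh-1. The x axis is the distance in kb from the low-coordinate end of each annotated gene, coloured bars are peaks of list 1 (below the gene) and list 3 (above it), black lines are summits, the black box is the snoRNA gene C07H6.10, and the numbers are IP tags at the summit. The peaks of sup-12, fox-1 and asd-2 all come from list 3, the peaks of pab-2 overlap between lists, and those of cgh-1 lie 798 bp apart.

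The gene sup-12 (T22B2.4, chromosome X, 3904584 to 3907673) had 3 peaks in list 3. The values given for each peak are the number of IP tags at the summit and the authors' fold enrichment, which is the IP coverage over the local input level with 1 added to each. The first peak (X, 3904827 to 3905075, summit 3904973) had 4 tags and a fold of 3.32. The second (X, 3905419 to 3905707, summit 3905556) had 6 tags and a fold of 4.56. The third (X, 3906792 to 3907060, summit 3906899) had 4 tags and a fold of 3.32. The middle peak was thus the highest of the gene, and it was the only peak of the 3 splicing regulators with a q value of at most 0.05 (q = 0.0068), while the outer peaks had q = 1 in the authors' list. The 95% Poisson interval was 1.09 to 10.2 for 4 tags and 2.20 to 13.1 for 6 tags, so the 3 summits could not be told apart by tag number at this depth. These intervals cover counting error only. The summits lay 583 and 1343 bp apart, and the peaks together took up 26.1% of the annotated span of 3090 bp. In list 3, 10 of the 127 coding genes with a peak there had at least 3 summits, sup-12 among them.

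The gene fox-1 (T07D1.4, chromosome X, 2445475 to 2455949) had 2 peaks in list 3, both close to the low-coordinate end of a span of 10475 bp. The first (X, 2446286 to 2446487, summit 2446352) and the second (X, 2446646 to 2446847, summit 2446742) each had 4 tags, a fold of 3.32 and q = 1. Each was 202 bp wide, which is the length to which the caller extended tags in that list and the smallest width of any peak there. The summits lay at 8.37% and 12.1% of the span, 390 bp apart. No peak was called in the rest of the gene, and the peaks covered 3.86% of it. Neither peak overlapped another annotated gene.

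The gene asd-2 (T21G5.5, chromosome I, 6877059 to 6892143) was the longest of the 5, at 15085 bp and with 4 RefSeq transcripts. Its 2 peaks in list 3 (I, 6879032 to 6879283, summit 6879183, and I, 6880376 to 6880754, summit 6880494) each had 4 tags, a fold of 3.32 and q = 1. The tag numbers and folds were those of fox-1 and of the outer peaks of sup-12. The summits lay at 14.1% and 22.8% of the span, 1311 bp apart, and the second peak was the wider, at 379 bp against 252 bp. The peaks covered 4.18% of the gene, and neither overlapped another annotated gene.

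The gene pab-2 (F18H3.3, chromosome X, 13522262 to 13525823) was the only one of the 5 in which peaks of different lists overlapped. In list 1 the peak (X, 13523164 to 13523708, summit 13523275) had 6 tags, a fold of 5.44 and q = 0.000918. In list 3 the peak (X, 13523416 to 13523773, summit 13523554) had 7 tags, a fold of 3.07 and q = 1. The list with more tags at the summit therefore gave the lower fold. The local input level at the list 3 summit was 1.00, against a genome-wide background of 0.184, while in list 1 it was at the background of 0.22. Scaled to 1000000 IP tags, the summits had 153.7 and 167.3 tags, and the intervals of 2.20 to 13.1 for 6 tags and 2.81 to 14.4 for 7 tags overlapped. The peaks shared 293 bp, which was 53.8% of the list 1 peak and 81.8% of the list 3 peak. Their summits were 279 bp apart, at 28.4% and 36.3% of the span.

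The gene cgh-1 (C07H6.5, chromosome III, 7495320 to 7497832) had peaks in lists 1 and 3 at places that did not overlap. The list 1 peak (III, 7495439 to 7495641, summit 7495538) had 6 tags, a fold of 5.44 and q = 0.000918, the same values as pab-2 in that list. The list 3 peak (III, 7496440 to 7496641, summit 7496514) had 3 tags, a fold of 2.70 and q = 1. It had the fewest tags and the lowest fold of the 11 peaks, and a 95% Poisson interval of 0.619 to 8.77 tags. Of the 199 peaks of list 3, 1 had a lower fold. This was also the only one of the 11 peaks to overlap another annotated gene. It covered 65 of the 78 bp of the snoRNA gene C07H6.10 (III, 7496577 to 7496654), and its summit lay 63 bp before that gene. Strand was not used here, so reads of the snoRNA and of cgh-1 cannot be told apart at this peak. The peaks lay 798 bp apart, at 8.67% and 47.5% of the span.

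The local input level equalled the genome-wide background at 10 of the 11 peaks. The fold of such a peak has no measured denominator and is fixed by the number of IP tags and by the scaling and background level of the list. Over all lists 58.8% of peaks were of this kind, and in list 3 66.3%. The second list 3 peak of sup-12 and the list 1 peaks of pab-2 and cgh-1 all had 6 tags, but their folds were 4.56 and 5.44. The caller scaled the IP to the smaller input, by 0.734 in list 3 and by 0.939 in list 1, and the background was 0.184 and 0.22, so that the same 6 tags gave different folds. Scaled to 1000000 IP tags, these summits had 143.4 tags in list 3 and 153.7 in list 1. For list 2, 6 tags over background would give a fold of 4.57.

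**Figure D2:**
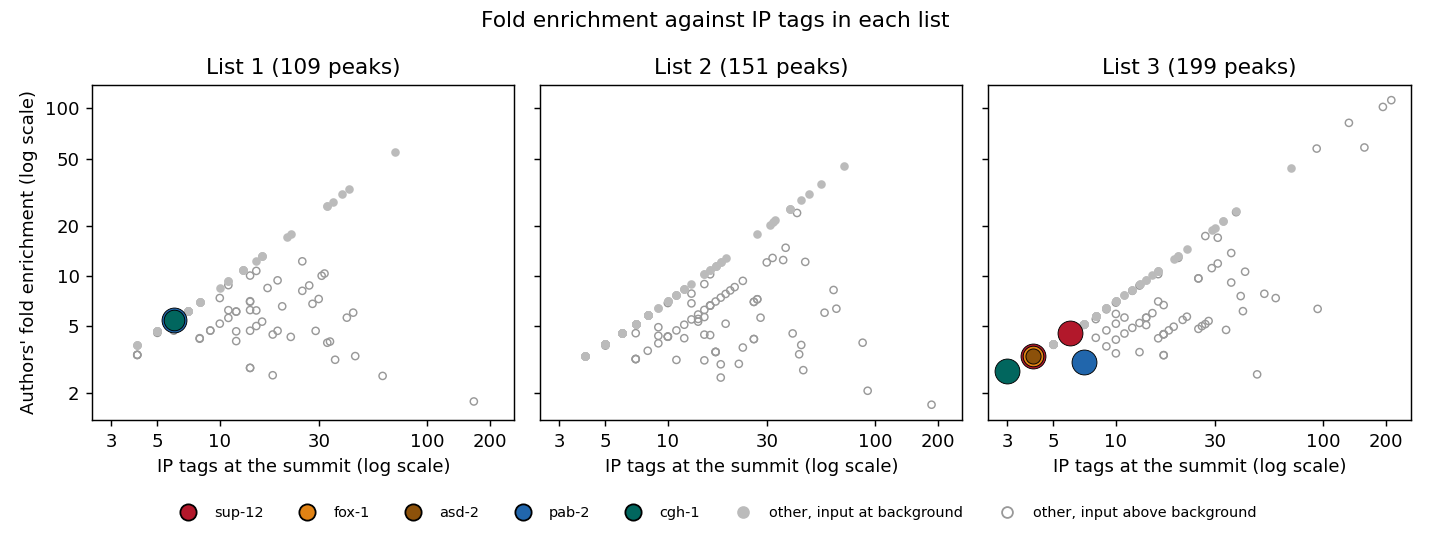
Authors' fold enrichment (y axis, log scale) against IP tags at the summit (x axis, log scale) for every peak of lists 1, 2 and 3. Filled grey points have input at the background and lie on a single curve per list, open points have a higher input, and large coloured points are the peaks of the 5 genes, with coinciding points nested. The peaks of the 5 genes lie at 3 to 7 tags and folds of 2.70 to 5.44, and pab-2 in list 3 lies below the curve.

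Most of the list 3 peaks of the 5 genes were among the lower ones of that list. In list 1 the peaks of pab-2 and cgh-1 were near the middle by fold and below the median by tags. In list 3 the median peak had 7 tags and a fold of 4.56, and 7 of the 9 peaks of the 5 genes had 4 tags or fewer, as did 44 of the 199 peaks of the list. The fold of 3.32 shared by fox-1, asd-2 and the outer peaks of sup-12 was the fold of 28 peaks of list 3, and 6 of these 28 lay in the 3 splicing regulator genes. Only 18 peaks of list 3 had a lower fold. In list 1 the median peak had 11 tags and a fold of 5.64, against 6 tags at pab-2 and cgh-1, and their folds of 5.44 ranked 57th of 109, tied among 15 peaks. Of the 11 peaks 3 had q at most 0.05, and 73.2% of all peaks did. This held for 1 of the 9 peaks in list 3 and for both peaks in list 1, and for 57.8% and 91.7% of all peaks of those lists, and for 80.1% of list 2.

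The calling threshold, at −log10 of 3, does not fall at the same tag number in each list. The authors' p was matched at 457 of 459 peaks, within 0.05 on the −log10 scale, by the Poisson probability of exceeding the whole part of the coverage at the local input level. Over background input, 3 tags gave a −log10 p of 3.05 in list 3, which is a call, but 2.82 in list 1 and 2.78 in list 2, which are not. The list 3 peak of cgh-1, with 3 tags, was thus at a level that could be called in list 3 alone. In list 3, 3 and 4 tags have the same −log10 p of 3.05, since their coverages of 2.20 and 2.94 share the whole part 2. The 6 peaks with 4 tags in sup-12, fox-1 and asd-2 and the 3-tag peak of cgh-1 all had this value, the lowest that passes in that list. The value just outside, 2 tags over background, gives 1.83. With 4 tags over background a position would have passed this threshold in list 1 (−log10 p of 4.08) and in list 2 (4.02). A call also needed width, since no peak was narrower than 203, 201 and 202 bp in lists 1, 2 and 3. Without a peak in lists 1 and 2, the tags there over sup-12, fox-1 and asd-2 are not known.

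**Figure D3:**
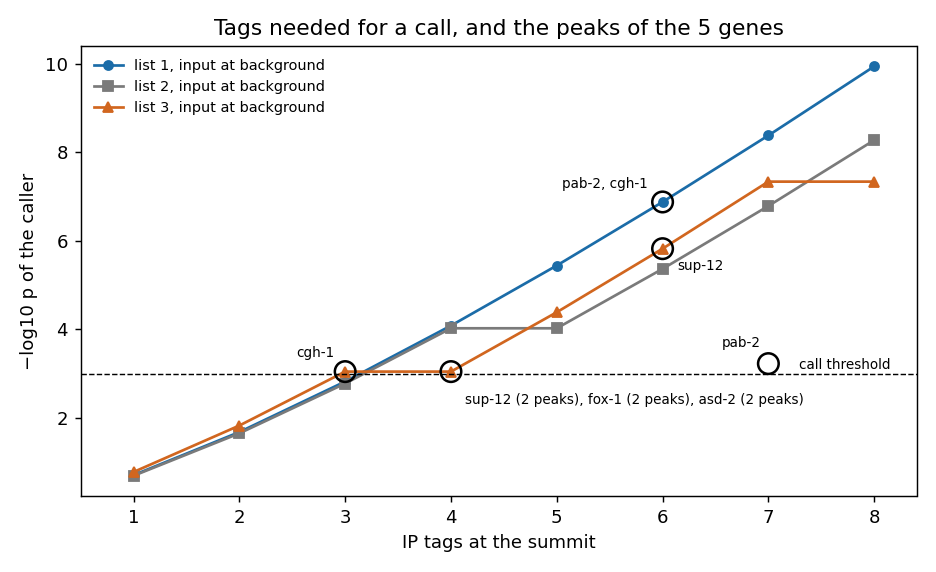
The −log10 p of the caller (y axis) for a summit with a given number of IP tags (x axis) over input at the background, as computed for lists 1, 2 and 3, with open circles at the peaks of the 5 genes and a dashed line at the call threshold. The circles at 3 and 4 tags lie at 3.05, just above the threshold, the circles at 6 tags lie at 5.83 and 6.88, and pab-2 in list 3 lies at 3.23 with 7 tags because its input was higher.

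Between the splicing regulators and the cytoplasmic mRNA-binding proteins, the order of the folds over all lists differed from that within list 3. Over all lists the median fold was 3.32 for the 7 peaks of sup-12, fox-1 and asd-2 (3.32 to 4.56) and 4.25 for the 4 peaks of pab-2 and cgh-1 (2.70 to 5.44). In list 3, the only list with peaks of both kinds, the 7 peaks of the splicing regulators had a median of 3.32 and the peaks of pab-2 and cgh-1 had 3.07 and 2.70. Both of the latter folds lay below all 7. By tags the order was another for pab-2, whose 7 tags were more than the 4 to 6 of the splicing regulators, and its −log10 p of 3.23 was above that of 6 of their 7 peaks (3.05). The 3 tags of cgh-1 were fewer than those of any of the 7. The higher median of pab-2 and cgh-1 over all lists thus came from list 1, where each had 5.44. No test was made, because the genes were chosen for these peaks, and 3 genes against 2 cannot reach a two-sided exact permutation p below 0.2.

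The 5 genes differed in length and in how many peaks they held for it. The spans were 3090 bp for sup-12, 10475 bp for fox-1, 15085 bp for asd-2, 3562 bp for pab-2 and 2513 bp for cgh-1, against a median of 2005 bp over all coding genes and of 3232 bp over the other coding genes with a peak. Peaks per kb of span were 0.971 for sup-12, 0.796 for cgh-1, 0.561 for pab-2, 0.191 for fox-1 and 0.133 for asd-2, summed over lists. Splicing regulator genes thus stood at both ends of this order. The genes sup-12, fox-1 and pab-2 lie on the X chromosome, which holds 13.7% of coding genes and 17.4% of the other coding genes with a peak. The 5 genes were chosen for their peaks, so their place on X was not tested. Of the 11 summits, 10 lay below the midpoint of the span in coordinates, the exception being the third of sup-12 at 74.9%, and 54.3% of the 383 summits in other coding genes did. Summits of a gene share its transcript and were not tested, and strand, which sets the 5′ end, was not used here.

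Several peaks in list 3 with none in the other lists was a pattern of few genes. Of 127 coding genes with a peak in list 3, 25.2% had at least 2 summits there and 43.3% had no peak in lists 1 and 2. Both held for 7 genes, and sup-12, fox-1 and asd-2 are 3 of them. The other 4, named after their values were seen, were agr-1, gpb-1, rab-1 and unc-115. These 3 splicing regulators were proposed with their peaks known, so the count is a description.

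The mbl-1 transcript gives a scale for these values in the same lists. Its span of 31693 bp is longer than that of any of the 5 genes, so its number of summits is not comparable with theirs as it stands. It had 22 summits, with 6, 8 and 8 in lists 1, 2 and 3, and 21 of the 22 had q at most 0.05. In list 3 its 8 peaks had 4 to 20 tags, with a median of 8.5, and folds of 3.32 to 13.2. In list 2 they had 6 to 17 tags and folds of 4.57 to 11.5, where the 5 genes had no peak. In list 1 the 6 mbl-1 peaks had 8 to 14 tags and folds of 6.97 to 10.8. Both ranges lay above the 6 tags and the fold of 5.44 of pab-2 and cgh-1 in that list. The lowest mbl-1 peak of list 3 was at the level of the fox-1 and asd-2 peaks.

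Among other genes for RNA-binding proteins, 4 had a peak, and 2 of these had one at q of at most 0.05. Of a list of 35 further splicing factor genes matched in the annotation, 2 had one (5.71%). Of 56 further genes for cytoplasmic mRNA-binding proteins, 2 had one (3.57%), against 0.831% of all coding genes. Both lists were chosen with earlier results of these data known, so these shares are a description and were not tested. The gene prp-8, which encodes a core spliceosome protein, had 7 tags and a fold of 4.56 in list 2 (III, 8165548 to 8165748, q = 0.0177). The gene rbm-25, which encodes a splicing factor, had 5 tags and a fold of 3.94 in list 3 (V, 12503272 to 12503473, q = 0.146). The Y-box protein gene cey-1 had 10 tags and a fold of 3.45 in list 3 (II, 11039926 to 11040375, q = 0.302). All 3 were in 1 list, as sup-12, fox-1 and asd-2 were.

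The gene sqd-1, which encodes an hnRNP-like protein named after Drosophila Squid, had the highest tag numbers of these genes. It was counted here under the cytoplasmic mRNA-binding proteins, and where its protein acts was not examined. Its list 2 peak (IV, 6324726 to 6325186) had 17 and 19 tags at 2 summits, with folds of 3.52 and 5.19. Its list 3 peak (IV, 6324271 to 6324557) had 22 tags, a fold of 5.72 and q = 5.03e-07. The peaks of the 2 lists did not overlap, and input was above the background at each of the 3 summits. The paralog of pab-2, pab-1, had no peak in any list.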

How the data were processed

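Per the file headers, the authors called peaks with MACS2 version 2.1.0.20150420, separately for each IP against its input, at a p threshold of 0.001, keeping 1 tag per position. The submitters' processing notes also name BWA, DiffBind and the build WBcel235. The deposited lists give, for each summit, the pileup, a coverage signal of extended IP tags scaled to the smaller library, the fold ratio over the local input, and −log10 p and q values. Although the headers state that no q was computed, the deposited q values are used as they stand. A q of 1 is a deposited −log10 q of 0. All of these values are the authors' own.

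From them, IP tags were recovered as pileup over the library ratio (whole within 0.02 at all 459 summits), and the input level from pileup and fold, called at background within 0.01. Summits were placed on gene spans of the RefSeq gene table of WBcel235, matched by build name. That table has no strand, exons or sequence, so none is given. Poisson intervals are 95%. The 5 genes and the further gene lists were chosen with earlier results of these data known. Every peak of the 5 genes is named, with mbl-1, pab-1 and each gene of the further lists that had a peak (up to 10). Of 94 symbols, 3 were not matched. No per-gene test was run. The placement was tested on simulated summits. Alternatives were thresholds on q and fold, placement and overlap rules, and leaving out each replicate. Python 3.11.15, numpy 2.4.6, pandas 2.3.3, scipy 1.17.1 and matplotlib 3.10.9 were used.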

Additional observations from a re-analysis of the deposited data

How the results depend on the processing

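The number of peaks at the 5 genes was 11, and it was 3 at q of at most 0.05, 0 at −log10 q of at least 5 and 3 at fold of at least 4. It was 2 to 11 when each replicate was left out, with 2 without replicate 3. The number of genes with a peak in at least 2 lists, 2, and of overlapping pairs between lists, 1, both fell to 0 at each of the 3 thresholds, and without replicate 1 or replicate 3 they were 0 as well (range 0 to 2 and 0 to 1). No overlapping pair was left when summits had to lie within 100 bp. The median fold of the splicing regulators was 4.56 at q of at most 0.05 and at fold of at least 4, where 1 peak of sup-12 was left. It was 3.32 without replicate 1 or replicate 2, and without replicate 3 there was no value. The median of pab-2 and cgh-1 was 2.89 without replicate 1 and 5.44 without replicate 3. Of the further RNA-binding protein genes, 4 had a peak, 2 at q of at most 0.05, 1 at −log10 q of at least 5, 2 at fold of at least 4, and 2 to 4 without each replicate. Stricter filters lower such counts by construction. Placement by any overlap or in spans extended by 500 bp changed no value. No paired analysis was possible because values exist at called peaks alone and no groups were tested against each other. Depth limits all of these values, since the 11 peaks rest on 3 to 7 tags.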
